A study of Mus musculus with 18 samples.

Results

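The 8 genes described here encode the core of the PI3K-Akt-mTOR pathway: Pik3ca and Pik3cb (catalytic subunits of class I phosphoinositide 3-kinase, PI3K), Pik3r1 (its regulatory subunit), the kinases Akt1 and Akt2, the kinase Mtor, and Rptor and Rictor, the scaffold subunits that define the mTOR complexes. They were chosen by name and not by a cut on their values, though with earlier results of these data known. All 8 were found once each among the 27179 genes of the table of normalized counts. Although the set is called the core kinases, Pik3r1, Rptor and Rictor encode no kinase.

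PI3K is recruited to activated growth factor receptors and phosphorylates a membrane lipid, which brings Akt to the membrane to be switched on. Akt restrains FoxO transcription factors, GSK3 and the TSC complex, and through TSC and the small GTPase Rheb it releases mTOR complex 1 (mTORC1). Raptor, the product of Rptor, presents substrates to mTORC1, which promotes translation and holds back autophagy, while Rictor marks mTORC2, which phosphorylates Akt itself. In bone marrow stromal cells the pathway is known for its part in growth, survival and the choice between bone and fat lineages. Kinase activity depends on phosphorylation, which mRNA levels do not measure.

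RNA was sequenced from 18 cultures of primary mesenchymal stem cells (MSCs) grown from the bone marrow of C57BL6 mice, with 6 libraries per group (young, old and rejuvenated old), all harvested at day 7. Young MSCs came from mice of 6 weeks and had no treatment, and old MSCs came from mice of 18 to 24 months and were cultured separately. Rejuvenated old MSCs were old MSCs grown for 7 days in wells that also held young MSCs, kept apart by a Transwell membrane with pores of 0.4 µm that soluble factors can pass. Old MSCs kept with a second culture of old MSCs were not analysed here, so in the comparison of rejuvenated old with old MSCs the presence of any other cells in the well and their young age cannot be told apart. The labels call the replicates biological but do not say whether they came from separate animals, and p-values measure the spread between these libraries.

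The libraries held 22936251 to 29559194 reads on genes, and each of the 8 genes had at least 60 reads in every library. Differences in log2(normalized count + 1) were tested with limma over 14353 genes, all 8 among them, whose mean normalized count reached 10, and a gene was called when its Benjamini-Hochberg adjusted p over these genes was under 0.05. Fold changes are differences on this log2 scale, with the group named first minus the group named second. Of 10 stromal markers, 9 had more than 3 reads in some library of every group, and Thy1 had at most 3 reads in every old library. Their levels differed between young and old MSCs, with 5 of the 10 higher and 5 lower in young MSCs, against 41.6% and 44.1% of all genes. Mean normalized counts were 163 in young and 7340 in old MSCs for Eng, and 14051 and 4075 for Pdgfra. Of 10 macrophage markers, 5 did not exceed 3 reads in any young library, with Adgre1 and Ptprc at 0 there. The summed normalized count of the macrophage markers was 921 to 1038 in young, 13159 to 16502 in old and 13102 to 16080 in rejuvenated old libraries. Rejuvenated old replicate 1 stood apart from its group, with a Cd34 level of 402 normalized counts where the other 5 had 24.2 to 41.9, and 21.6 of Thy1 against 0 to 0.951, both genes that were high in young MSCs. In these bulk libraries, fewer cells of a type and less RNA per cell cannot be told apart.

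The starts of 4 of the genes are shown because their levels went in different directions. After co-culture Pik3ca and Rptor were lower, and these genes and Mtor were higher in young MSCs, where Akt1 was lower. Each sequence is the 250 bases before the gene's RefSeq start in GRCm38.p6 (mm10), written 5′ to 3′ on the strand of the gene. These are chr3:32396815-32397064 (plus strand) for Pik3ca, chr11:119602655-119602904 (plus) for Rptor, chr4:148448332-148448581 (plus) for Mtor and chr12:112674885-112675134 (minus) for Akt1, for which RefSeq lists 2 starts. Capitals mark matches on either strand to 7 motifs: the GC box (GGGCGG), the CCAAT box (CCAAT), the ETS motif (CCGGAAG), the E-box (CACGTG), the forkhead motif (GTAAACA), the NRF1 motif and the TATA box (TATAAA).
Pik3ca: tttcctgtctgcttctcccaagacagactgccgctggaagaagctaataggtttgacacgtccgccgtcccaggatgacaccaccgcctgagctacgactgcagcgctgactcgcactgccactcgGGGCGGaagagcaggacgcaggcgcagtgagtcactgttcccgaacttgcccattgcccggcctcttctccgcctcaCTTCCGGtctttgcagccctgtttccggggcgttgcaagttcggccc
Rptor: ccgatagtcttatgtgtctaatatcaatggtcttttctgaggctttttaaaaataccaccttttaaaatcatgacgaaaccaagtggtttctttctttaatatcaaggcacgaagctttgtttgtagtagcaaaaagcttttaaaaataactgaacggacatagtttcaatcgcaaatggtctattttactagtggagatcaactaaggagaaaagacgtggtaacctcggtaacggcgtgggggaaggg
Mtor: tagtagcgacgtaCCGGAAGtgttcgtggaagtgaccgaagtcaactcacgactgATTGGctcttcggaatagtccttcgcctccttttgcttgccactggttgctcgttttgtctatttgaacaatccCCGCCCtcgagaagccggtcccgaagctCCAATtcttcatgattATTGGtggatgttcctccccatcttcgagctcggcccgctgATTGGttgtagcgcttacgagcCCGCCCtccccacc
Akt1: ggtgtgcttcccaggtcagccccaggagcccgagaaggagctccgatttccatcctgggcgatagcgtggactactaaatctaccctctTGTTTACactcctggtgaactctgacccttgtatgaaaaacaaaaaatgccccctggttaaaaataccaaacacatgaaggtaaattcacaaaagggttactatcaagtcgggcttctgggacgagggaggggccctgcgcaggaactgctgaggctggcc

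Among the 8 windows, 6 held a GC box, against 32.7% of all 32851 promoter windows of this length, and 4 held a CCAAT box, against 33.8%. The ETS motif was found in 2, those of Pik3ca and Mtor, against 6.91% of all windows. The forkhead motif was found in 1, that of Akt1, against 3.17%. The E-box, the NRF1 motif and the TATA box were found in 0 of the 8, against 6.02%, 0.782% and 12.4% of all windows. No letters of the 7 motifs stood in the Rptor window. Matches may overlap, as a GC box and a CCAAT box did before Rictor, and they describe letters and not binding. The windows of the 8 genes held 7 to 40 CG dinucleotides, with a median of 6 over all windows. Those of Pik3cb and Rictor overlapped annotated exons of their own gene. For Pik3ca and Pik3cb the bases compared after the start were found in no GENCODE transcript of the gene.

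After co-culture 3 of the 8 genes were called, Pik3ca, Pik3cb and Rptor, all lower than in old MSCs, and 0 were higher. Over all genes tested in this comparison 41.6% were called, with 20.6% lower and 21% higher, so the count stands near that background. The groups did not overlap for 1 of the 8 genes, Pik3ca, against 22% of all genes, and it lay below, as did 11.6% of all genes, while 0 of the 8 lay above, against 10.4%. Between young and old MSCs 6 of the 8 were called, 4 higher and 2 lower in young MSCs, where 85.7% of all genes were called, 41.6% as higher and 44.1% as lower. These 6 had groups that did not overlap, against 73.9% of all genes, with 4 above (35.7% of all genes) and 2 below (38.2%). Young and rejuvenated old MSCs gave 6 calls, 4 higher and 2 lower in young MSCs, with a background of 85.6% (41.5% higher and 44.1% lower). Here too 6 genes were without overlap, with a background of 70.5%, 4 of them above (34% of all genes) and 2 below (36.5%). The median absolute log2 fold change of the 8 genes was 0.05 in rejuvenated old against old MSCs, where it was 0.15 over all genes tested. It was 0.38 in young against old MSCs, against 0.60 over all genes, and 0.44 in young against rejuvenated old MSCs, against 0.58. The comparisons share libraries, and none of them is a repeat of another.

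**Figure D1:**
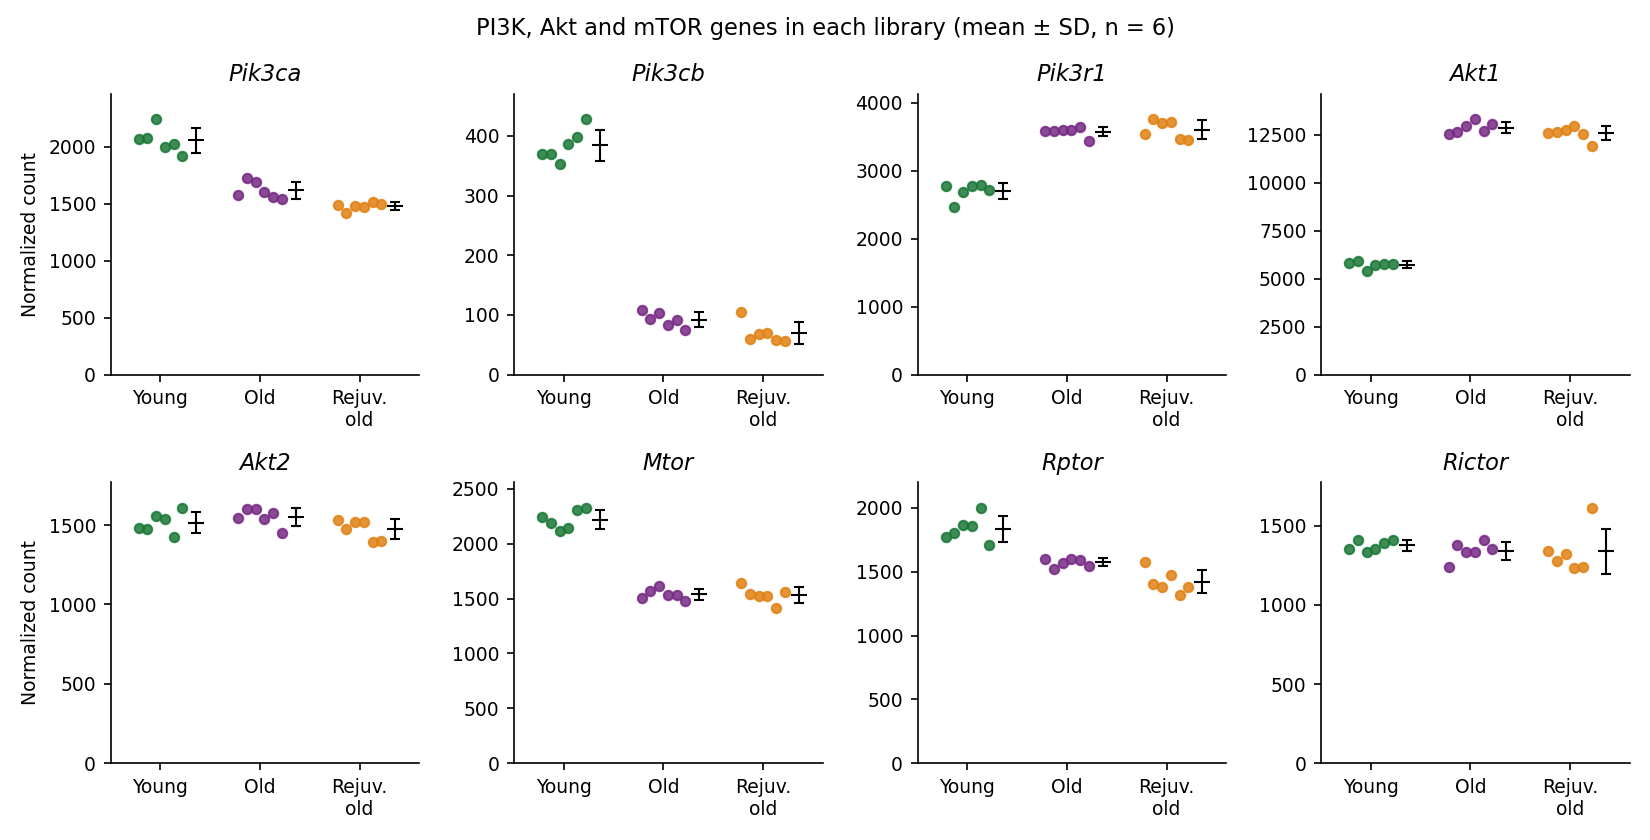
Normalized count of each of the 8 genes (y axis, from 0) in the 6 young (green), 6 old (purple) and 6 rejuvenated old (orange) libraries, drawn in the order of their replicate numbers, with the mean and SD of each group in black. Akt1 lies between 5376 and 5927 in young libraries and at 11926 or more in all others, while the 3 groups of Akt2 overlap.

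Pik3ca (gene number 18706), which encodes the catalytic subunit p110 alpha, lies on chromosome 3 from 32397065 to 32466112. Its level ran from 1917 to 2244 normalized counts in young (median 2049), from 1543 to 1726 in old (median 1589) and from 1419 to 1519.85 in rejuvenated old MSCs (median 1484). All 6 rejuvenated old libraries lay below all 6 old ones, and all 6 young libraries lay above both. After co-culture the decrease was small, a log2 fold change of -0.13 (standard error 0.04, adjusted p = 0.00828). Young MSCs had more of it than old MSCs, by 0.35 (adjusted p = 8.85e-09) and higher than in rejuvenated old MSCs by 0.47 (adjusted p = 3.86e-11).

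Pik3cb (gene number 74769), which encodes the catalytic subunit p110 beta, lies on chromosome 9 from 99038402 to 99140235 on the minus strand. It showed the largest fold changes of the 8 genes in each of the 3 comparisons. The young libraries held 353 to 428 normalized counts (median 379). The old libraries held 75.04 to 109 (median 91.9). After co-culture the range was 56.6 to 105, with a median of 64.0. Every young library lay above every other library, while old and rejuvenated old libraries overlapped. Mean levels were 384 ± 26.4 (SD, n = 6), 92.3 ± 12.5 (SD, n = 6) and 69.6 ± 18.2 (SD, n = 6), so young MSCs had 4.16 times the level of old MSCs on the log2 scale used, a fold change of 2.05 (standard error 0.12, adjusted p = 3.25e-13). Against rejuvenated old MSCs the fold change was 2.48 (adjusted p = 9.9e-15).

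After co-culture Pik3cb was lower than in old MSCs by a log2 fold change of -0.42 (standard error 0.12, adjusted p = 0.00858). The highest value of the group was that of replicate 1, the library with high Cd34, at 105 normalized counts, while the other 5 libraries lay between 56.6 and 70.5. Without this library the fold change was -0.55 (adjusted p = 0.000112), and those of Pik3ca and Rptor were -0.13 (adjusted p = 0.0118) and -0.18 (adjusted p = 0.000699). The old range began at 75.04, above these 5 libraries. At 60 to 102 reads per library in both groups, Pik3cb is also the gene with the fewest reads of the 8.

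Pik3r1 (gene number 18708), which encodes the regulatory subunit p85 alpha that stabilises and restrains the catalytic subunits, lies on chromosome 13 from 101680761 to 101768217 on the minus strand. Unlike Pik3ca and Pik3cb it was lower in young MSCs. Its level was 2470 to 2787 normalized counts in young (median 2739), 3440.15 to 3636 in old (median 3588) and 3445 to 3757 in rejuvenated old MSCs (median 3615). Young libraries lay below all others, and the other groups overlapped. Young MSCs were below old MSCs by a log2 fold change of -0.41 (standard error 0.03, adjusted p = 5.26e-11) and below rejuvenated old MSCs by -0.42 (adjusted p = 3.28e-11). Between rejuvenated old and old MSCs it was 0.01 (95% interval -0.06 to 0.08, adjusted p = 0.809). Chromosome 13 as a whole was lower in young MSCs, with a median of -0.30 over its 519 other tested genes. The fold change of Pik3r1 between young and old MSCs differed from that median by -0.11. Another measure centred each library on the median level of the chromosome's genes, which need not shift by their median fold change. Centred in this way, Pik3r1 differed by -0.01 between young and old MSCs (adjusted p = 0.873). Between young and rejuvenated old MSCs it differed by 0.04 (adjusted p = 0.19), and both calls were lost. The part of the chromosome shift in Pik3r1 was not tested.

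Akt1 (gene number 11651), the more abundant of the Akt kinases in these cells, lies on chromosome 12 from 112653821 to 112674884 on the minus strand. Young libraries held 5376 to 5927 normalized counts (median 5769). Old libraries held 12542 to 13317 (median 12817). Those of rejuvenated old MSCs had 11926 to 12976, with a median of 12620.5. The old and rejuvenated old groups overlapped, and every young library lay far below both. Young MSCs were below old MSCs by -1.17 on the log2 scale (standard error 0.03, adjusted p = 8.17e-21) and below rejuvenated old MSCs by -1.13 (adjusted p = 1.46e-20), which is 2.25 and 2.20 times lower. Between rejuvenated old and old MSCs it was -0.03 (95% interval -0.09 to 0.03, adjusted p = 0.377), and with quantile normalization it was called, at -0.07 (adjusted p = 0.045).

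Akt2 (gene number 11652), the Akt kinase best known for insulin-stimulated glucose uptake, lies on chromosome 7 from 27591552 to 27640826. Its level was 1426 to 1610.46 normalized counts in young (median 1511), 1448 to 1604 in old (median 1561) and 1392 to 1533 in rejuvenated old MSCs (median 1498). All 3 groups overlapped. Log2 fold changes were -0.07 (95% interval -0.15 to 0.00, adjusted p = 0.112) in rejuvenated old against old, -0.03 (-0.11 to 0.04, adjusted p = 0.381) in young against old and 0.04 (-0.04 to 0.12, adjusted p = 0.314) in young against rejuvenated old MSCs. The sign of the difference between young and old MSCs turned with the scaling, to 0.04 with libraries scaled to the same total and to values under 0.01 with the same 75th percentile or quantile normalization. The same total also gave a call in young against rejuvenated old MSCs, at 0.13 (adjusted p = 0.00204). After co-culture the difference from old MSCs passed the test without old replicate 6, at -0.09 (adjusted p = 0.0468), and with libraries scaled to the same total, at -0.09 (adjusted p = 0.0483). Centred on the chromosome median it was -0.14 (adjusted p = 0.00822).

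The chromosomes that carry Akt1 and Akt2 shifted in opposite directions between young and old MSCs. On chromosome 12 the median log2 fold change of the 495 other tested genes was -0.45, and Akt1 lay 0.71 below it. Of the 20 tested genes nearest to Akt1, which span 1.24 Mb, 18 were lower in young MSCs, with a median of -0.94. On chromosome 7 the median of the 1031 other tested genes was 0.61, and Akt2 lay 0.65 below it, with 15 of its 20 nearest tested genes higher in young MSCs and a median of 0.37. With each library centred on the chromosome's median level, not its median fold change, Akt2 was lower in young than in old MSCs by -0.53 (adjusted p = 2.22e-11). Akt1 was then lower by -0.70 (adjusted p = 3.6e-16). Against rejuvenated old MSCs Akt2 then turned to -0.39 (adjusted p = 4.86e-09). The difference of Akt2 between young and old MSCs therefore depended on what the gene was compared with, and the part of these chromosome shifts in it was not tested. The macrophage markers, which also separated young from old libraries, were not tested for their part in any of these differences.

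**Figure D2:**
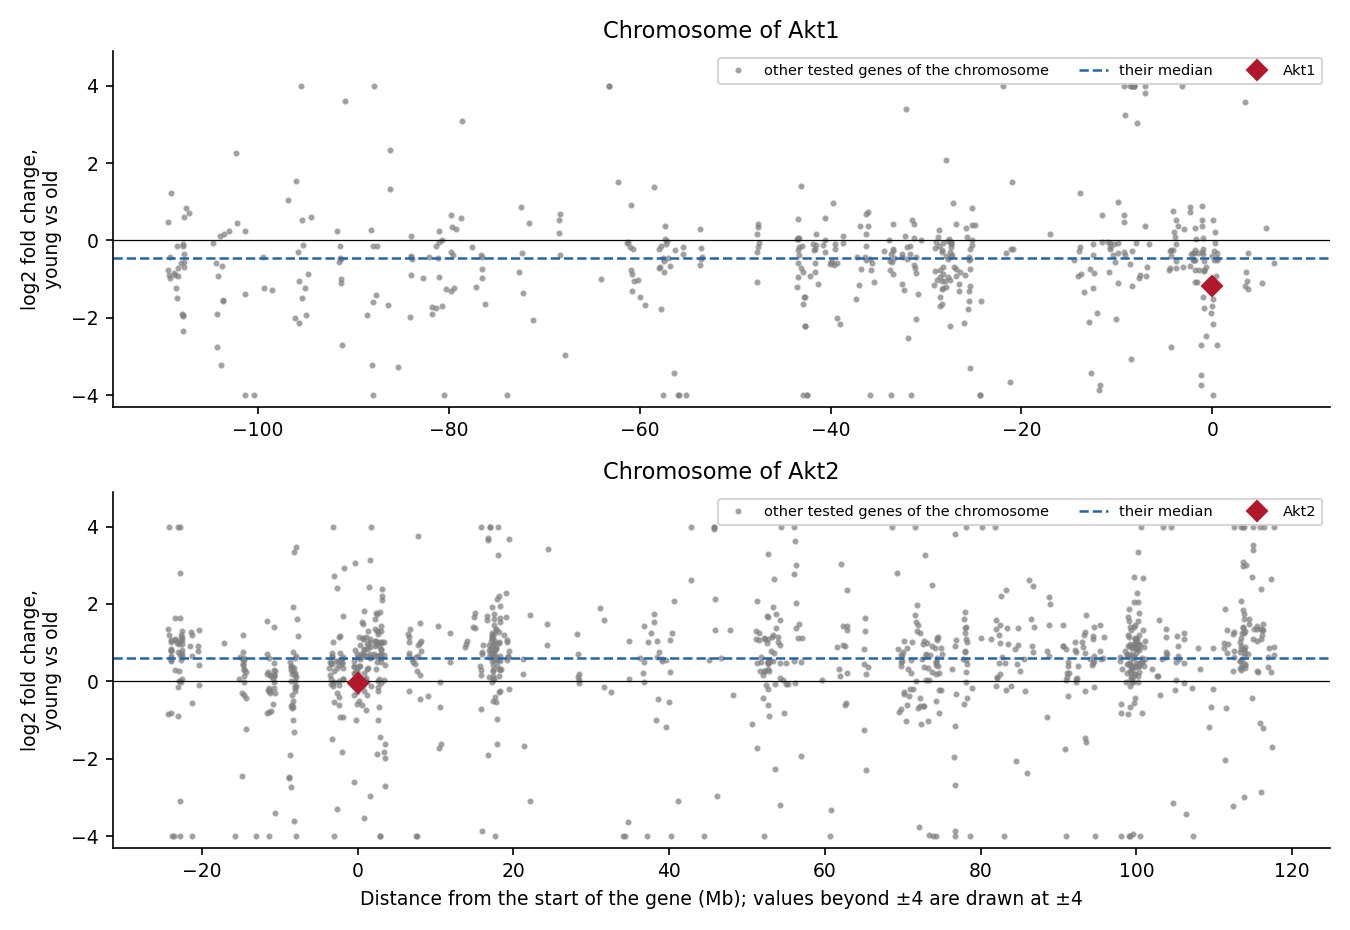
Log2 fold change between young and old MSCs (y axis) of each tested gene on the chromosomes of Akt1 (top) and Akt2 (bottom) against its distance in Mb from the start of that gene (x axis). The dashed line is the median of the other genes, -0.45 and 0.61, and the red diamond is Akt1 at -1.17 or Akt2 at -0.03, both below that line. Genes past the ends of the axis are drawn at its ends.

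Mtor (gene number 56717), the kinase shared by both mTOR complexes, lies on chromosome 4 from 148448582 to 148557685. It had 2115 to 2330.23 normalized counts in young (median 2215), 1478 to 1613 in old (median 1529.6) and 1415 to 1641 in rejuvenated old MSCs (median 1529.97). Young libraries lay above all others, and old and rejuvenated old libraries overlapped. The log2 fold change was 0.53 (standard error 0.04) in young against old (adjusted p = 2.56e-12) and in young against rejuvenated old MSCs (adjusted p = 2.26e-12). Between rejuvenated old and old MSCs it was -0.01 (95% interval -0.08 to 0.07, adjusted p = 0.924). The 20 tested genes nearest to Mtor had a median of -0.31 between young and old MSCs, with 9 higher and 11 lower.

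Rptor (gene number 74370), which encodes the substrate-binding scaffold of mTORC1, lies on chromosome 11 from 119602905 to 119899591. Its exons share 84 bases with the antisense gene Rptoros, and whether the authors counted by strand is not given in the sources used here. Young libraries held 1707 to 2003 normalized counts (median 1834), old libraries 1525 to 1603 (median 1583) and, after co-culture, 1321 to 1579 (median 1392). Young libraries lay above all old and rejuvenated old ones, which overlapped through rejuvenated old replicate 1 at 1579. Rejuvenated old MSCs were lower than old MSCs by a log2 fold change of -0.15 (standard error 0.04, adjusted p = 0.00618). In young MSCs Rptor was higher than in old MSCs by 0.22 (adjusted p = 3.44e-05) and higher than in rejuvenated old MSCs by 0.37 (adjusted p = 2.02e-08).

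Rictor (gene number 78757), which encodes the scaffold of mTORC2, lies on chromosome 15 from 6708349 to 6800401. It had 1332 to 1411 normalized counts in young (median 1375), 1238 to 1408 in old (median 1346) and 1234 to 1616 in rejuvenated old MSCs (median 1300.3), and all groups overlapped. Log2 fold changes were -0.01 (95% interval -0.11 to 0.10, adjusted p = 0.919) in rejuvenated old against old, 0.04 (-0.07 to 0.14, adjusted p = 0.494) in young against old and 0.04 (-0.06 to 0.15, adjusted p = 0.407) in young against rejuvenated old MSCs. Rejuvenated old replicate 6 lay apart, at 1616, where the rest of its group had 1234 to 1344. Without it Rictor was higher in young than in rejuvenated old MSCs by 0.10 (adjusted p = 0.0132), and with libraries scaled to the same total by 0.14 (adjusted p = 0.0237). Centred on the median of its chromosome, it was lower in young MSCs, by -0.13 (adjusted p = 0.0327) against old and by -0.17 (adjusted p = 0.00848) against rejuvenated old MSCs.

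**Figure D3:**
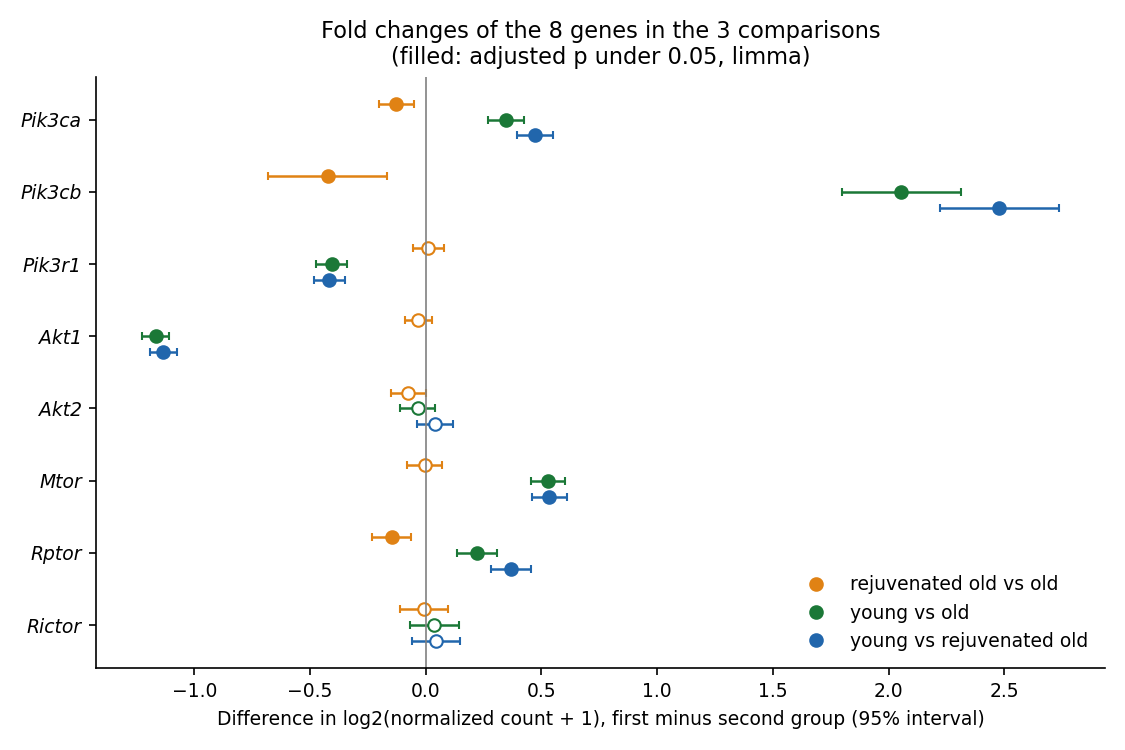
Difference in log2(normalized count + 1) with its 95% interval (x axis) for each gene (y axis) in rejuvenated old against old (orange), young against old (green) and young against rejuvenated old MSCs (blue). Filled points had an adjusted p under 0.05 and open points did not; the points run from -1.17 for Akt1 to 2.48 for Pik3cb.

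For 4 pairs of partner genes the ratio within a library, as a difference in log2(normalized count + 1), was compared with two-sided exact permutation tests over the 924 splits of 6 against 6 libraries, with p adjusted over 12 tests. The smallest p these splits allow is 0.00216, which adjusts to 0.00371. The normalized count of Akt2 was 0.248 to 0.290 of that of Akt1 in young libraries (median 0.262). It was 0.111 to 0.127 in old (median 0.123) and 0.111 to 0.122 in rejuvenated old libraries (median 0.117). Every young library thus had a higher ratio of Akt2 to Akt1 than any other library. The difference in the log2 ratio was 1.13 between young and old MSCs (exact permutation test, adjusted p = 0.00371), and -0.04 between rejuvenated old and old MSCs (adjusted p = 0.251). With each gene centred on the median of its chromosome, the difference between young and old MSCs was 0.17 (adjusted p = 0.00325) and that between young and rejuvenated old MSCs 0.25 in place of 1.17.

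For the catalytic subunits, the ratio of Pik3cb to Pik3ca was 0.157 to 0.223 in young, 0.0486 to 0.0689 in old and 0.0378 to 0.0705 in rejuvenated old libraries. Young libraries lay above both other groups, which overlapped. The log2 ratio was higher by 1.71 in young than in old MSCs (exact permutation test, adjusted p = 0.00371). Between rejuvenated old and old MSCs the difference was -0.30 (exact permutation test, adjusted p = 0.0945). Leaving out rejuvenated old replicate 1 gave -0.42 (adjusted p = 0.00649). The ratio of the regulatory Pik3r1 to Pik3ca was 1.19 to 1.41 in young, 2.08 to 2.33 in old and 2.28 to 2.65 in rejuvenated old libraries. Between young and old MSCs its log2 difference was -0.75 (adjusted p = 0.00371), with groups that did not overlap, and -0.44 when centred on chromosome medians (adjusted p = 0.00325). In rejuvenated old MSCs this ratio was higher than in old MSCs by 0.14 (adjusted p = 0.0115), with groups that overlapped, and centring on chromosome medians left 0.06 (adjusted p = 0.162).

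The ratio of Rictor to Rptor, scaffolds of the opposite complexes, was 0.696 to 0.826 in young, 0.772 to 0.903 in old and 0.836 to 1.17 in rejuvenated old libraries. Young and old libraries overlapped, while young libraries lay below all rejuvenated old ones. The log2 difference was -0.18 in young against old (exact permutation test, adjusted p = 0.00974) and -0.32 in young against rejuvenated old MSCs (adjusted p = 0.00371). Centred on chromosome medians these were larger, -0.35 and -0.52 (both with adjusted p = 0.00325). After co-culture it was 0.14 (adjusted p = 0.0945), and it passed the test without rejuvenated old replicate 4, at 0.17 (adjusted p = 0.0312), while leaving out replicate 6 of that group gave 0.08 (adjusted p = 0.179).

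**Figure D4:**
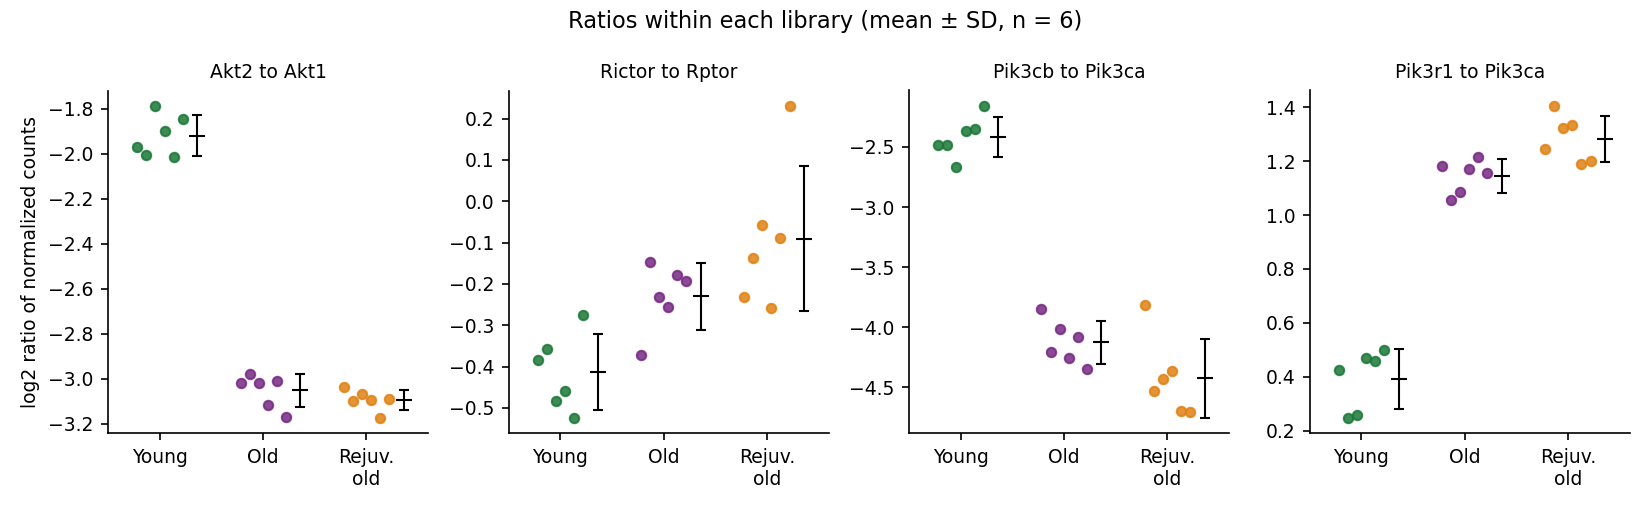
Log2 ratio of the normalized counts of 2 genes within each library (y axis) for 4 pairs of genes, in young (green), old (purple) and rejuvenated old (orange) libraries, with mean and SD in black. Young libraries stand apart from both other groups except in the ratio of Rictor to Rptor, where they overlap with old libraries.

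Levels of different genes were compared as normalized counts per kilobase of all exons of a gene. In old MSCs the order was Akt1 at 3139 ± 70.6 (SD, n = 6), Pik3r1 at 354, Akt2 at 218, Pik3ca at 178, Mtor at 152, Rptor at 117, Rictor at 79.3 and Pik3cb at 12.8 ± 1.74 (SD, n = 6). Neighbours in this order did not overlap in the old libraries. The order was the same in rejuvenated old MSCs, where Pik3ca and Mtor overlapped, as 156 to 167 and 140 to 162. In young MSCs Pik3ca at 226, Mtor at 219.7 and Akt2 at 212 overlapped, as did Pik3r1 (245 to 277) with Pik3ca (211 to 247), and the other genes kept their places. Per kilobase of the longest transcript, Rptor rose to the place after Akt2, at 239 in old MSCs, so the order of the middle genes depended on the length used. Akt1 came before and Pik3cb after all other genes in every group with both lengths.

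The genes closest in pattern were found by the root-mean-square difference of log2(normalized count + 1), centred on each gene's mean, over the 18 libraries. This is a description with no test, and libraries of 1 group share their condition. Akt1 was closest to Rnf41, at 0.0425, and Dirc2, at 0.0443, where its own spread about its mean was 0.544. Mtor was closest to Smarcc1 (0.0420) and Cdk13 (0.0443), with an own spread of 0.256. Pik3ca was closest to Smg6 (0.0527) and Stat3 (0.0578), with an own spread of 0.207. Pik3cb had 0 genes within 0.1, and its closest were Ezr, at 0.156, and Pdp1, at 0.189, with an own spread of 1.102. The SD of Pik3cb was 13.5% of its mean in old and 26.1% in rejuvenated old libraries, at 60 to 102 reads. The part of this scatter in its distances was not tested. For Pik3r1 the closest were Taf9 and Slc10a3, for Rptor Fam168b and Fundc1, for Akt2 Cisd2 and Hsp90ab1 and for Rictor Cpsf6 and Nfrkb, all at 0.0432 to 0.0602. The own spread of Akt2 was 0.0626 and that of Rictor 0.0871, little more than these distances, and 602 and 167 genes lay within 0.1 of them, so the genes named for Akt2 and Rictor are among many whose levels varied little. The own spread of Pik3r1 was 0.2 and that of Rptor 0.165. Many genes also lay within 0.1 of the other members except Pik3cb. There were 470 for Pik3r1, 378 for Mtor, 268 for Rptor, 255 for Pik3ca and 119 for Akt1. The genes named for these members are therefore also among many of like pattern.

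Around the 8 genes stands a list of 75 other genes of the pathway in 14 role groups, of which 72 were tested (Pik3c2g, Inpp4b and Sgk2 were too low). In rejuvenated old against old MSCs 7 were higher and 21 were lower, where 21% of all genes were higher and 20.6% lower. The share called in either direction, 38.9%, was near the background of 41.6%. Their median log2 fold change was -0.02 against 0.01 over all genes. In young against old MSCs 38 were higher and 28 lower, where 41.6% of all genes were higher and 44.1% lower. This made 91.7% called against 85.7%, with a median of 0.17 against -0.02. In young against rejuvenated old MSCs 41 were higher and 28 lower, where 41.5% of all genes were higher and 44.1% lower. This made 95.8% called against 85.6%, with a median of 0.21 against -0.03.

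Of the PI3K genes beside the 8, both other class I catalytic genes were lower in young than in old MSCs, as were 44.1% of all genes. Pik3cg, which encodes the catalytic subunit p110 gamma known mainly from leukocytes, had 0 to 2 reads in every young library and 99.8 ± 10.3 (SD, n = 6) normalized counts in old MSCs, at least 31.6-fold lower in young MSCs with the floor set at 3 reads per library. Pik3ap1, an adaptor of PI3K known from B cells and macrophages, also had 0 to 2 reads in young libraries and was at least 32.3-fold lower there. After co-culture Pik3ap1 was at -0.57 (adjusted p = 0.0615), with groups that did not overlap, and passed the test without young replicate 1, 3, 4 or 6 (adjusted p = 0.0486, 0.0483, 0.0484 and 0.026) and with both count tests. It also passed with only old and rejuvenated old libraries in the limma fit (adjusted p = 0.000618) and with a pseudocount of 10 (adjusted p = 0.000239). Macrophage markers were also lower in young MSCs, 10 of 10 called lower and 0 higher, against 44.1% and 41.6% of all genes. Their part in these PI3K genes was not tested. Of the 5 other regulatory and adaptor genes, 1 was called between rejuvenated old and old MSCs, against 41.6% of all genes. This was Pik3r3, which encodes the subunit p55 gamma. It fell from 3357 ± 72.3 (SD, n = 6) normalized counts in old to 2648 ± 137 (SD, n = 6) in rejuvenated old MSCs (log2 fold change -0.34, adjusted p = 1.55e-06) and was 766 ± 59.6 (SD, n = 6) in young MSCs. Of the 4 tested class II and III genes 2 were lower and 0 higher after co-culture, against 20.6% and 21% of all genes. Pik3c2b was at -0.38 (adjusted p = 0.0201) and lost its call without rejuvenated old replicate 3 (adjusted p = 0.0573).

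Upstream, 5 of 12 receptor and adaptor genes were lower and 2 higher after co-culture, where 20.6% of all genes were lower and 21% higher. The hepatocyte growth factor receptor Met was lower by -0.34 (adjusted p = 3.62e-06), with 1259 to 1527 normalized counts against 1656 to 1854 in old libraries. Between young and old MSCs 7 were higher and 4 lower in young MSCs, against 41.6% and 44.1% of all genes. Irs1, the adaptor of insulin and IGF receptors, was 8.83 times lower in young MSCs, at 932 ± 44.9 (SD, n = 6) against 8231 ± 165 (SD, n = 6) normalized counts (log2 fold change -3.14, adjusted p = 1.43e-26). Centred on the chromosome median, Irs1 was lower by -2.42 (adjusted p = 3.92e-25). In rejuvenated old MSCs Irs1 was at 8100 ± 422 (SD, n = 6), a log2 fold change of -0.02 from old MSCs (adjusted p = 0.620).

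Among 8 tested phosphatases that oppose PI3K or Akt, 1 was lower and 0 were higher after co-culture, against 20.6% and 21% of all genes, and 3 were higher and 5 lower in young than in old MSCs, against 41.6% and 44.1%. Phlpp1, which dephosphorylates Akt, was lower after co-culture by -0.15 (adjusted p = 0.0205), and the call was lost without old replicate 2 (adjusted p = 0.0515) or rejuvenated old replicate 5 (adjusted p = 0.0518). Inpp5d, the lipid phosphatase SHIP1 of blood cells, had 0 to 3 reads in young libraries and was at least 64.5-fold lower than in old MSCs, along with the macrophage markers.

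Both tested SGK kinases were called in young against old MSCs, 1 higher and 1 lower, against 41.6% and 44.1% of all genes. Sgk1, an Akt-like kinase that mTORC2 activates, was higher in young MSCs by 1.26 (adjusted p = 1.55e-13) and lower after co-culture by -0.54 (adjusted p = 3.44e-06). Rejuvenated old replicate 1 had the highest Sgk1 of its group, at 1131 normalized counts against 751 to 883, and without it the change was -0.61 (adjusted p = 1.62e-08). Sgk3, which binds endosomal lipid, was lower in young MSCs by -1.51 (adjusted p = 2.15e-09), and by -0.78 when centred on the chromosome median (adjusted p = 3.79e-05).

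Beside Mtor and Rptor, all 3 other mTORC1 subunit genes were lower after co-culture than in old MSCs, where 20.6% of all genes were lower, and Mtor was at -0.01. Mlst8, a subunit of both complexes, was lower by -0.34 (adjusted p = 0.000165), with 344 to 440 normalized counts against 416 to 533 in old libraries. Deptor, an inhibitor of mTOR, was lower by -0.45 (adjusted p = 0.0116). Akt1s1, which encodes the mTORC1 inhibitor PRAS40, was lower by -0.10 (adjusted p = 0.0167), a call lost without old replicate 4 (adjusted p = 0.0501). For these 3 genes the groups overlapped. In young against old MSCs Akt1s1 was higher by 1.19 (adjusted p = 1.06e-19), or 0.70 when centred on the chromosome median, and Deptor by 0.69 (adjusted p = 7.91e-05). Mlst8 was lower by -0.14 (adjusted p = 0.0419), a call lost in 8 of the 18 fits that left out 1 library and with 3 of the 4 other scalings, while centring on the chromosome median gave -0.43 (adjusted p = 5.65e-06).

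Of the 3 other mTORC2 genes, Prr5l was lower after co-culture, where 20.6% of all genes were lower, and the others were not called. Prr5l fell from 234 to 306 normalized counts in old libraries to 131 to 190 in rejuvenated old ones, without overlap (log2 fold change -0.80, adjusted p = 2.09e-07), and was 328 to 431 in young libraries. Mapkap1, which encodes the core subunit SIN1, was at -0.08 after co-culture (adjusted p = 0.0707), which passed the test without rejuvenated old replicate 2 (adjusted p = 0.0467) or 3 (adjusted p = 0.0273). It also passed with libraries scaled to the same total, at -0.09 (adjusted p = 0.024), and with DESeq2 on recovered reads (adjusted p = 0.0495). In young against old MSCs it was lower by -0.20 (adjusted p = 1.26e-05), or -0.09 when centred on the chromosome median (adjusted p = 0.0209). Of the 3 genes of the TTT complex, which assembles mTOR, 1 was higher and 0 were lower after co-culture, against 21% and 20.6% of all genes. Telo2 was higher by 0.14 (adjusted p = 0.00676), a call lost when centred on the chromosome median (adjusted p = 0.0827). In young against old MSCs 2 of the 3 were higher and 1 was lower, against 41.6% and 44.1% of all genes. Tti2 was higher there by 0.62 (adjusted p = 6.15e-11).

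Rheb, the GTPase that switches on mTORC1, was higher in rejuvenated old MSCs than in old MSCs. Its level was 3035 to 3318 normalized counts against 2632 to 2917, without overlap (log2 fold change 0.20, adjusted p = 5.08e-05), and 2396 to 2670.45 in young libraries. Its relative Rhebl1 was higher in young than in old MSCs by 1.096 (adjusted p = 8.96e-10). Among 4 genes that restrain the pathway under stress or feedback, Trib3, a pseudokinase that binds Akt, rose after co-culture. It had 157 to 223 normalized counts in old, 347 to 914 in rejuvenated old and 1645 to 2346 in young libraries, so that no groups overlapped. Against old MSCs, Trib3 was higher by 1.81 (adjusted p = 1.1e-08) after co-culture and by 3.44 (adjusted p = 4e-15) in young MSCs. Ddit4l, which inhibits mTORC1, had 2 to 7 reads in young libraries and 2497 ± 119 (SD, n = 6) normalized counts in old MSCs, a log2 fold change of -8.94 (adjusted p = 7.11e-24) that ran from -9.15 to -7.46 over the other settings. After co-culture Ddit4l was at -0.26 (adjusted p = 0.168), without overlap. This fit shares its spread with the young libraries, at 2 to 7 reads. Ddit4l was called in 4 of 13 other settings. These were DESeq2 (adjusted p = 3.52e-09) and edgeR (adjusted p = 2.05e-05) on recovered reads, and 2 other limma fits. The limma fits held only old and rejuvenated old libraries (adjusted p = 6.64e-05) or used a pseudocount of 10 (adjusted p = 0.00347).

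Downstream of mTORC1, 8 of 10 translation genes were higher and 1 was lower in young than in old MSCs, against 41.6% and 44.1% of all genes, and 1 was higher and 1 lower after co-culture, against 21% and 20.6%. Eif4ebp1, the translation repressor that mTORC1 phosphorylates, was higher after co-culture without overlap, at 4227 to 5121 against 3031 to 3526 normalized counts (log2 fold change 0.49, adjusted p = 4.74e-09), and was 5901 to 6666 in young libraries. Eef2k, which slows elongation, was higher in young than in old MSCs by 1.21 (adjusted p = 2.05e-16), or 0.71 when centred on the chromosome median, and at -0.01 after co-culture (adjusted p = 0.923). Of 9 Akt substrates, 5 were lower and 1 higher after co-culture, against 20.6% and 21% of all genes. Foxo3, a transcription factor that Akt keeps out of the nucleus, was lower by -0.39 (adjusted p = 0.00185) after co-culture and by -1.44 (adjusted p = 1.23e-12) in young against old MSCs.

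**Figure D5:**
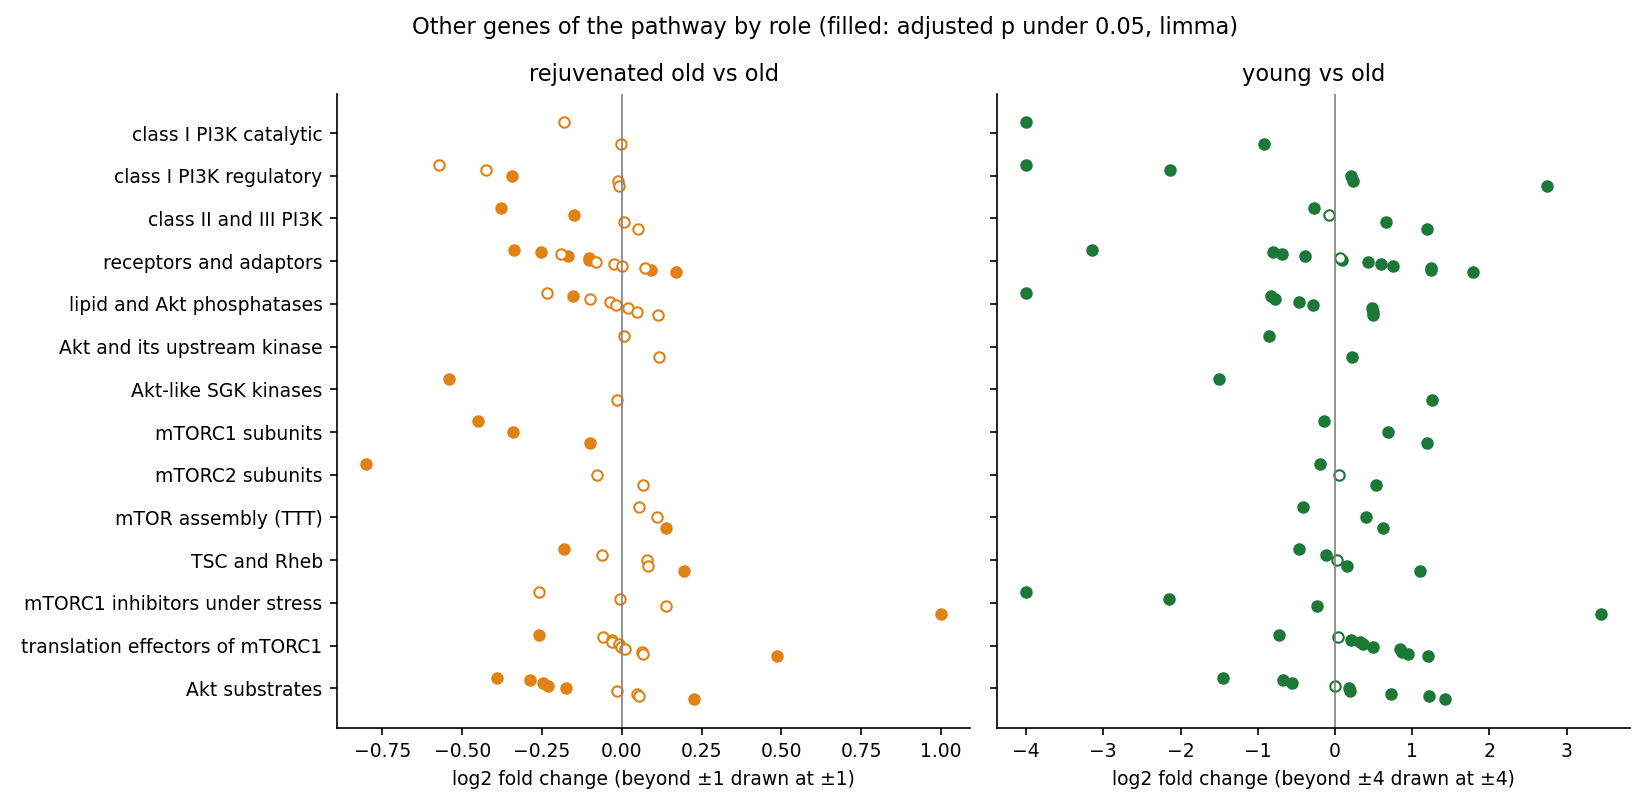
Log2 fold change of the 72 other tested pathway genes (x axis) by role group (y axis) in rejuvenated old against old (left, orange) and young against old MSCs (right, green), with filled points for an adjusted p under 0.05. On the left all 3 mTORC1 subunit points are filled and below 0, and the point at the right end, drawn there because it lies past the axis, is Trib3 at 1.81. Points past either end are drawn at that end.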

How the data were processed

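The authors sequenced poly(A) RNA with a stranded kit. The submitters' processing notes and the paper name HISAT2 for alignment to mm10, StringTie and featureCounts for counting and DESeq2 for normalization, with versions not given in the sources used here. What the authors deposited is a normalized signal: reads of each gene divided by the size factor of the library. Whole reads were recovered for 100% of the values (tolerance 0.001 of a read), and replicates were not pooled.

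From these values, log2(value + 1) was tested with limma 3.58.1 (R 4.3.3), with all 3 groups in 1 fit and limma's mean-variance trend, over 14353 genes whose mean reached 10, and Benjamini-Hochberg adjustment across all 14353. Ratios used exact permutation tests (scipy 1.17.1). The fit was tested on simulated data. DESeq2 1.42.0 and edgeR 4.0.16 on the recovered reads were alternatives, with other pseudocounts, filters, scalings, priors, groups in the fit, thresholds and a replicate block, and each library left out in turn. Positions came from RefSeq GRCm38.p6, exon lengths from GENCODE, and promoter sequences from RefSeq, in which all 8 genes matched by gene number.

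The 8 genes, the pathway and marker lists and the tests were chosen with earlier results of these data known. Named were the 8 genes, the gene with the largest absolute fold change among those called in each role group in rejuvenated old against old and in young against old MSCs, Mlst8 and Mapkap1, and the 2 genes most like each of the 8 in pattern, with predicted genes passed over. Some genes that the rule names are not reported here. Marker genes were named from the marker lists. The 95% intervals are those of the limma fit. No proteins were printed, and activity assays were not analysed here.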

Additional observations from a re-analysis of the deposited data

Results flagged for a closer look

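In groups of 6 libraries, a library was noted where its gap to the nearest of the others, divided by the range of the group, passed Dixon's 95% critical value. This was found 10 times in 108 groups of libraries, where chance gives about 1 in 20 groups.

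Of the 8 core genes, Pik3cb was high in rejuvenated old replicate 1, at 105 normalized counts where the rest of its group had 56.6 to 70.5, and Rictor was high in rejuvenated old replicate 6, at 1616 against 1234 to 1344. Pik3r1 was low in young replicate 2, at 2470.31 against 2683 to 2787, and in old replicate 6, at 3440.15 against 3581 to 3636. Akt1 was low in young replicate 3, at 5376 against 5724 to 5927.

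Of the other pathway genes, Phlpp1 was low in old replicate 6 (756 normalized counts against 843 to 893) and Sgk1 high in rejuvenated old replicate 1 (1131 against 751 to 883). Akt1s1 was high in old replicate 4 (2695 against 2369 to 2479), Rhebl1 high in rejuvenated old replicate 3 (137 against 89.6 to 99.5) and Trib3 high in old replicate 2 (223 against 157 to 178).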

How the results depend on the processing

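Of the 8 genes, 3, 6 and 6 were called (after co-culture, in young against old and in young against rejuvenated old MSCs) with both count tests, each pseudocount and each filter on low values. Leaving out 1 library gave other counts in 2 fits, 4 after co-culture without old replicate 6 and 7 in young against rejuvenated old MSCs without rejuvenated old replicate 6. A size limit of 0.25 on the log2 scale left 1 of the 8 genes and 13 other pathway genes after co-culture, in place of 3 and 28. The share of all genes that passes this limit is not given here, so these counts have no background. Of the values near 0, Pik3r1 after co-culture became -0.00438 with the same total and -0.0471 centred on chromosome medians, and Mtor became 0.000267 with the same 75th percentile and 0.00229 with quantile normalization. Akt2 in young against old MSCs became 0.0396, 0.00498 and 0.00134 with the same total, the same 75th percentile and quantile normalization. With libraries scaled to the same total, Akt2 (adjusted p = 0.00204) and Rictor (adjusted p = 0.0237) were also called in young against rejuvenated old MSCs, and quantile normalization called Akt1 after co-culture (-0.07, adjusted p = 0.045). Centred on chromosome medians, Pik3r1 (0.0419) and Akt2 (-0.390) in young against rejuvenated old MSCs changed sign, as did Rictor (0.0352 after co-culture, -0.132 and -0.167 in young against old and rejuvenated old MSCs), Phlpp1 (0.0947) and Mlst8 (-0.0313), both in young against rejuvenated old MSCs. The log2 ratio of Pik3r1 to Pik3ca after co-culture was then 0.0594 (adjusted p = 0.162). The cause was not tested.

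Leaving out each library in turn, log2 fold changes after co-culture ran across 0 for Pik3r1 (-0.000858 to 0.0241), Mtor (-0.0250 to 0.0179), Rictor (-0.0631 to 0.0147), Sgk3 (-0.0560 to 0.0315), Rhebl1 (-0.00829 to 0.146) and Eef2k (-0.0327 to 0.0271). The log2 ratio of Pik3cb to Pik3ca ran from -0.419 to -0.241 and that of Rictor to Rptor from 0.0756 to 0.173 after co-culture. The replicate numbers did not pair the libraries: libraries with the same number had deviations that correlated at -0.152 to 0.0736 over 18 pairs, and 2 of 36 best matches had their own number. With the replicate block the members called stayed at 3, 6 and 6, where 5769, 12219 and 12210 of all 14353 genes were called. Other pathway genes called were 29, 64 and 66. For ratios the block was another test, which flips the signs of the differences between libraries of the same number. In this sign-flip test the log2 ratio of Pik3r1 to Pik3ca after co-culture stayed at 0.138 with an adjusted p of 0.0682. The same test gave an adjusted p of 0.0469 for Akt2 to Akt1 in young against old MSCs, whose groups did not overlap. At 60 to 102 reads in old and rejuvenated old libraries, depth limits Pik3cb most of the 8 genes.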
